A study of Mus musculus with 4 samples.

Results

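The myelin genes described here are 9 genes that oligodendrocytes use to build the myelin sheath: Mbp, Mobp, Cnp, Mag, Mog, Cldn11, Ermn, Opalin and Ugt8a. They were chosen by gene symbol, and all 9 were found once in each RNA-seq table among 46320 gene identifiers. The RNA came from prefrontal cortex of female F1 mice, strain label C57BL6J/Spretus, at 14 weeks of age. Every library carried the same genotype, a mutation of the noncoding RNA gene Xist on the maternal allele, and no untreated or wild-type group was analysed here. Taking the first strain named as the dam's makes Spretus the paternal and C57 the maternal allele. There were 2 RNA-seq libraries and 2 MethylC-seq libraries. Tissue was pooled from 2 individuals of separate litters, and nothing in the labels says that libraries 1 and 2 came from different pools, so their spread may be technical. The comparison the files allow is Spretus against C57 within the same RNA.

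Myelin is a stack of oligodendrocyte membrane wrapped around an axon, and it is made by mature oligodendrocytes late in their differentiation. SOX10, MYRF and the OLIG factors are the transcription factors best known for this programme. Mature oligodendrocytes sit mainly in white matter and in the deep layers of cortex.

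Reads that could be given to an allele numbered 4768237 in RNA library 1 and 1291903 in RNA library 2. FPKM, the fragments per kilobase of transcript scaled to the size of the library, was 5.62 times higher in library 1 for the median gene. A single gene other than the members held 18.5% of all FPKM in library 1 and 59.0% in library 2. As a check of the tissue, 10 neuron genes had a median of 324 FPKM in library 1 and of 53.6 in library 2. Of the peripheral myelin genes, Prx stood at 0.475 FPKM in library 1 and 0.0266 in library 2, and Pmp2 at 0.0266 in library 1 and at 0 in library 2.

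Before the levels, the sequences just upstream of the genes are shown, because the members share a cell type and a known set of activators. RefSeq starts on GRCm38.p6 matched 8 members with 10 start sites, 3 of them in Mag. The sequence of the remaining member, Mbp, is not shown. The 250 bases before each start were searched on both strands for ACAAAG, a form of the SOX motif, and for CTGGNAC, a loosened form of the MYRF motif. N stands for any base, so CTGGNAC admits sites that the MYRF motif itself would not. Both were picked with the sequences in view. ACAAAG was found in 4 of the 8 members, Mobp, Cnp, Mag and Opalin, or 5 of their 10 windows, and in 16.5% of all 32851 promoter windows of this length. CTGGNAC was found in 3, Cnp, Mag and Mog, or 4 of the 10 windows, and in 16.1% of all windows. The Mobp window is shown for its 6 copies of ACAAAG, all reading CTTTGT on the gene's strand, and it was the only 1 of 32851 windows with at least 6. The Cnp window and the Mag window shown each held 1 ACAAAG and 2 CTGGNAC. Another Mag window overlaps the shown one and holds the same matches, the third Mag window held neither motif, and 1.58% of windows held at least 2 CTGGNAC. Opalin is shown for its single ACAAAG. No match of either motif overlapped a match of the other, and capitals mark the matches in the sequences, each written 5′ to 3′ on the gene's strand.
Mobp (chr9:120149492-120149741, plus strand): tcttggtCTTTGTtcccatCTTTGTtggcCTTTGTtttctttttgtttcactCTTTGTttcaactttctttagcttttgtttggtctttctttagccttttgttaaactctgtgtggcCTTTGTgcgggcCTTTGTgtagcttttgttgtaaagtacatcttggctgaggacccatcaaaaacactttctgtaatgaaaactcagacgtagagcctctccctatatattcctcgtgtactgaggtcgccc
Cnp (chr11:100574689-100574938, plus strand): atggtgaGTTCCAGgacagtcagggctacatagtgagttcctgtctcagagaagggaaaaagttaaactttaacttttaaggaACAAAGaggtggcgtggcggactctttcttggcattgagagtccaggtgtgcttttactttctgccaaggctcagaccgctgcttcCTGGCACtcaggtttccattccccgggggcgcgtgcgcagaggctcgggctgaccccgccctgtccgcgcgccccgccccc
Mag (chr7:30914864-30915113, minus strand): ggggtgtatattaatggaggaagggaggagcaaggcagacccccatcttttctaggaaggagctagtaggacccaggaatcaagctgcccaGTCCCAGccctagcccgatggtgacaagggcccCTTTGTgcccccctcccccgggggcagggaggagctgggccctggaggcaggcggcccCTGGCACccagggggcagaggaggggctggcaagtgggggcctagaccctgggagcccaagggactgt
Opalin (chr19:41077114-41077363, minus strand): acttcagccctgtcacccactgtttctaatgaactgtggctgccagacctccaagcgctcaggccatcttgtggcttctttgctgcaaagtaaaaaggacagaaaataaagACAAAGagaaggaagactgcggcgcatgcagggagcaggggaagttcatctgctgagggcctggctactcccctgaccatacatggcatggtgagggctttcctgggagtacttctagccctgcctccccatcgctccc
These matches describe letters only, since no binding was measured, and the RNA values of the same genes follow.

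The compact-myelin genes were the most abundant members. Mbp, which encodes the basic protein that holds the cytoplasmic faces of the membrane together, had 350.1 FPKM in library 1 and 34.2 in library 2. Mobp, a small basic protein of the same compartment, had 78.8 and 9.02 FPKM. Mbp alone made up 62.1% of the summed FPKM of the 9 members in library 1 and 59.4% in library 2.

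Of the genes of the inner, outer and non-compact membrane, Mag and Cnp came next in level, and Mog stood below Cldn11. Mag, an adhesion protein on the layer that faces the axon, had 49.0 FPKM in library 1 and 5.67 in library 2. Cnp, a phosphodiesterase of the cytoplasm-filled channels of myelin, had 45.5 and 3.65 FPKM. Mog, an immunoglobulin-family protein of the outermost layer, had 7.60 and 0.820 FPKM. Mog was the lowest of this trio in each library.

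Cldn11, the claudin of the tight junctions between myelin layers, had 15.9 FPKM in library 1 and 1.76 in library 2. The cytoskeletal gene Ermn had 5.50 and 0.844 FPKM, and Opalin, a transmembrane glycoprotein of oligodendrocytes, had 3.80 and 0.342. Ugt8a, the ceramide galactosyltransferase that makes galactosylceramide, had 7.41 and 1.29 FPKM. From highest to lowest the members spanned 92.2-fold in library 1.

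**Figure D1:**
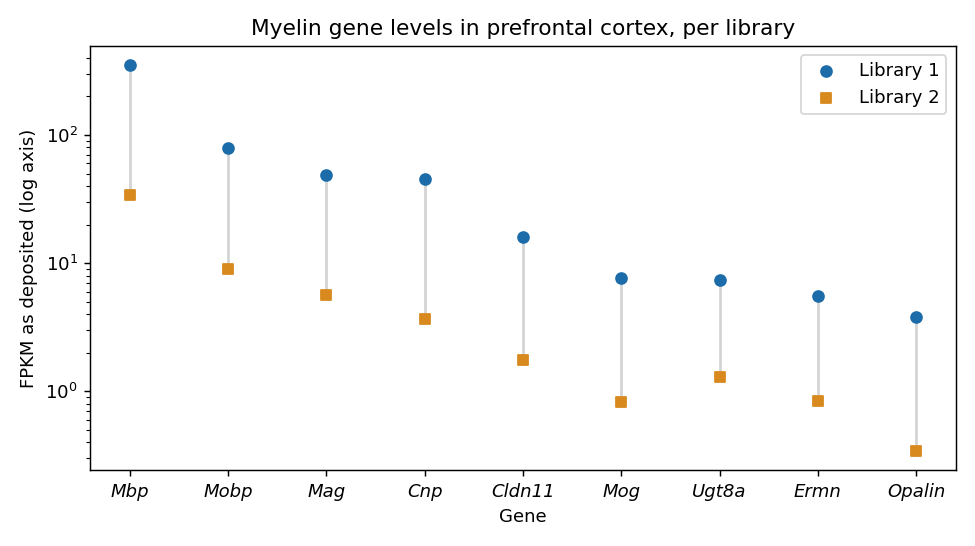
FPKM as deposited (vertical log axis) of the 9 myelin genes in library 1 (circles) and library 2 (squares), joined by a line for each gene and ordered by library 1. Mbp stands highest at 350.1 and 34.2 FPKM and Opalin lowest at 3.80 and 0.342, and the order differs between libraries only around Mog, Ugt8a and Ermn.

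The order of the levels was mostly the same in each library. After library 2 was multiplied by the median ratio of 5.62, the libraries' ranges of neighbouring genes did not overlap, with 2 exceptions. Mag (49.0 in library 1 and 31.9 in scaled library 2) overlapped with Cnp (45.5 and 20.5), and Mog (7.60 and 4.61) overlapped with Ugt8a (7.41 and 7.23). Mog also overlapped with Ermn (5.50 and 4.75), which was not its neighbour in library 1. By these ranges the pairs did not differ beyond the spread of the libraries. Within each library, however, Mag stood above Cnp, while the order of Mog against Ugt8a and Ermn turned between the libraries. Mbp ranked above 99.4% of genes with any FPKM in library 1 and 98.6% in library 2, while Opalin ranked above 58.1% and 42.4%.

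Most of the members differed between the libraries by more than most genes did. Relative to the median gene, all 9 had a higher FPKM in library 1, by a median of 1.61 times, and 7 were past 1.5-fold. For comparison, 4.92% of the 8969 genes with an FPKM of at least 1 in both libraries were past 1.5-fold in this direction and 6.04% in the other. Of the members, 0 went the other way. Only 6 of the 9 members met that minimum, since Mog, Ermn and Opalin were below 1 in library 2. Of these 6, 5 were past 1.5-fold. With a mean FPKM of at least 1 as the minimum, 9.52% of genes were past 1.5-fold, and Mog, Ermn and Opalin met that minimum only through their library 1 value. Both libraries belong to the same group, so this is a spread between replicates, described without a test. In bulk tissue, fewer oligodendrocytes and less myelin RNA per oligodendrocyte cannot be told apart. Neither can be told apart from a technical difference between the libraries.

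Cnp had the highest relative ratio, 2.22, above 99.5% of the genes with an FPKM of at least 1 in both libraries. Opalin followed at 1.98, Mbp at 1.82, Mog at 1.65 and Cldn11 at 1.61. Mobp stood at 1.55 and Mag at 1.54, just past the fold used. Ermn at 1.16 and Ugt8a at 1.02 stayed near the median gene, and the lipid enzyme was thus the member whose FPKM differed least between libraries.

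**Figure D2:**
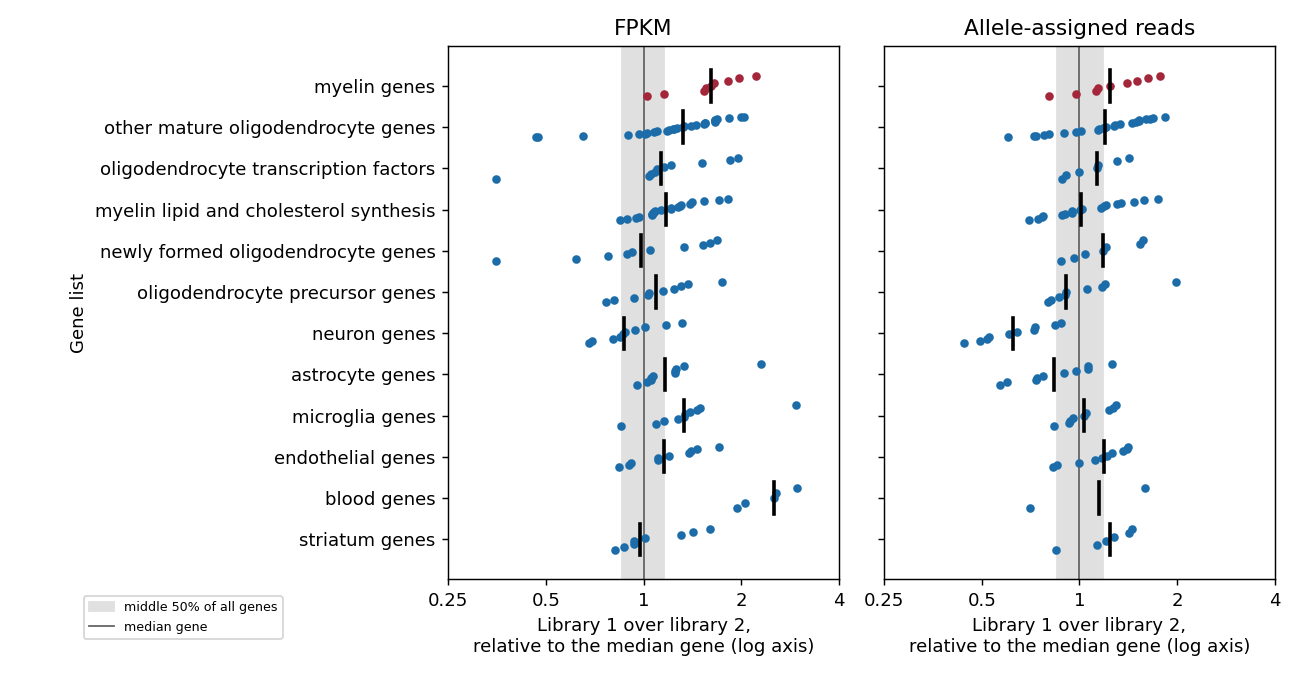
Library 1 over library 2 relative to the median gene (horizontal log axis), by FPKM on the left and by allele-assigned reads on the right, for the myelin genes (red) and 11 other gene lists (blue). Each point is a gene, black bars are list medians and the grey band is the middle 50% of all genes; the myelin genes have medians of 1.61 and 1.24, and the neuron genes 0.871 and 0.624.

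Allele-assigned reads gave a smaller difference and another order of the genes. In reads the members had a median relative ratio of 1.24, and 7 of 9 lay above the median gene. Past 1.5-fold were 3 of the 9, Opalin at 1.77, Mog at 1.62 and Ugt8a narrowly, against 6.44% of 11981 genes with at least 10 reads in each library. Mbp turned round, with 1741 reads in library 1 and 532 in library 2, a relative ratio of 0.806 (exact 95% interval 0.731 to 0.890, counting error only). Mobp, with 1525 and 386 reads, stood at 0.973 (0.870 to 1.09). Cnp kept its direction, with 629 and 125 reads and a relative ratio of 1.24 (1.02 to 1.51).

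The read ratio fell with the level of a gene, while the FPKM ratio did not. Among genes at 3 to 10 FPKM in library 1 the median relative ratio was 1.09 in reads and 1.03 in FPKM. Among the 518 genes at 100 FPKM and above it was 0.679 in reads and 1.03 in FPKM. Set against genes within 2-fold of their own FPKM, an alternative chosen after the values were seen, all 9 members lay above the median in reads, with a median of 1.40, Mbp at 1.27 and Mobp at 1.20. By FPKM the same comparison gave a median of 1.56, with 8 of 9 above and Ugt8a at 0.989. The direction for Mbp in reads thus depended on whether genes of like level were used. The interval of Mobp on the median scale held 1, and scaled to the library total its ratio was 1.07.

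**Figure D3:**
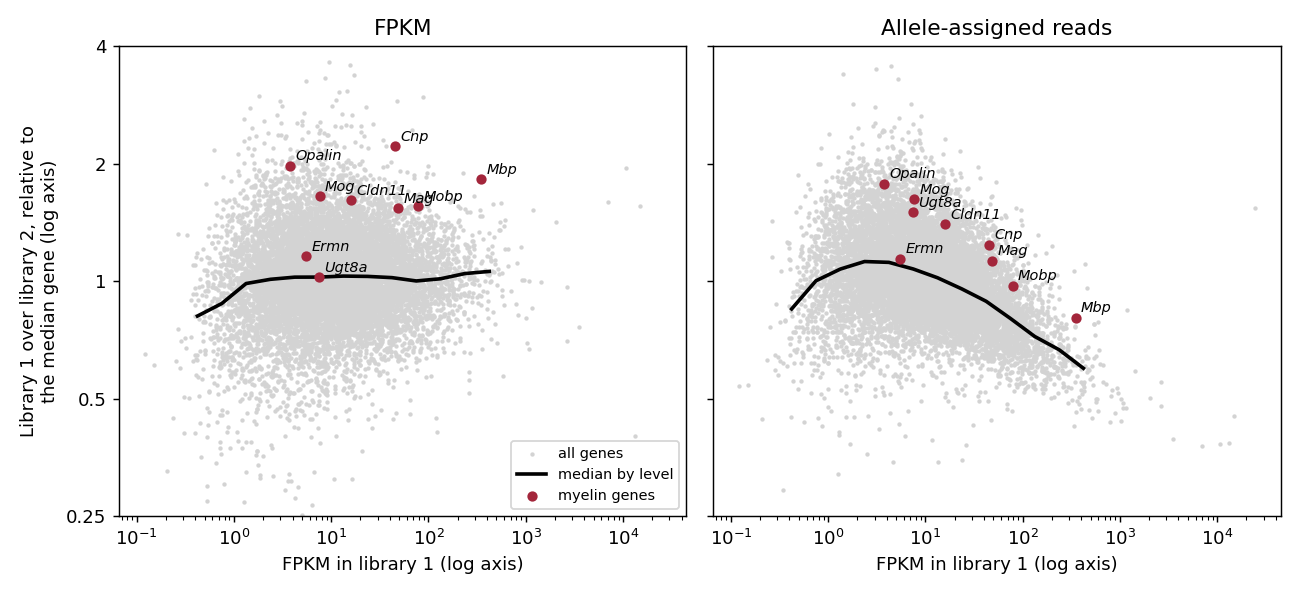
Library 1 over library 2 relative to the median gene (vertical log axis, drawn from 0.25 to 4) against FPKM in library 1 (horizontal log axis), by FPKM on the left and by allele-assigned reads on the right. Grey points are the genes with at least 10 reads in each library, the black line is the median by level and red points are the myelin genes; in reads the line falls toward abundant genes, and Mbp at 0.806 lies above it although it is under 1.

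The 29 other mature oligodendrocyte genes had a median relative FPKM ratio of 1.33, with 11 past 1.5-fold upward and 3 past it downward. In reads their median was 1.20, over the 24 with at least 10 reads in each library. Of the 10 transcription factors of the lineage, 7 had that many reads, with a median of 1.13 in reads. By FPKM all 10 factors had a median of 1.13. Within them 3 were past 1.5-fold upward, Nkx6-2 at 1.96, Nkx2-2 at 1.85 and Olig1 at 1.52, while Sox10 stood at 1.22, Myrf at 1.16 and Olig2 at 1.05, all named after their values were seen. In library 2 Nkx6-2 had only 0.164 FPKM and Nkx2-2 only 0.102. An FPKM of at least 1 in both libraries, the minimum behind the 4.92% of all genes above, was met by 4 of the 10 factors. Tcf7l2, a Wnt pathway factor that is on this list and on that of newly formed oligodendrocytes, had the lowest FPKM ratio of the lineage lists at 0.352. In reads it stood at 0.903, from only 11 in library 1 and 3 in library 2. For 20 genes of lipid and cholesterol synthesis the median FPKM ratio was 1.17, for 10 genes of newly formed oligodendrocytes 0.984, and for 10 precursor genes 1.09. The newly formed list held genes on either side, with 3 of 10 past 1.5-fold upward and 2 past it downward, while 1 precursor gene was past it upward and 0 downward. The minimum of 1 FPKM in both libraries was met by 18 of the 29 mature genes and 16 of the 20 lipid genes. It was met by 3 of the 10 newly formed and 5 of the 10 precursor genes. Nearest to the members' median ratio were Bcas1 at 1.60, Gjb1 at 1.66 and Trf, the transferrin gene, at 1.66. This likeness rests on 1 ratio over 2 libraries.

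Among the markers of other cells, the blood genes differed most between the libraries by FPKM. By FPKM, all 5 blood genes were past 1.5-fold, with 995.0 summed FPKM in library 1, 77.9 in library 2, and a median relative ratio of 2.53. The 10 microglia genes had a median of 1.34 with 1 past 1.5-fold, the 10 astrocyte genes 1.16 with 1 and the 10 endothelial genes 1.15 with 1. The 8 striatum genes, which would mark tissue beyond cortex, had a median of 0.974, with 1 past 1.5-fold. The 10 neuron genes had a median of 0.871 with none past 1.5-fold in either direction. For genes with an FPKM of at least 1 in both libraries, the quartiles of this ratio were 0.861 and 1.158. Of those genes 4.92% were past 1.5-fold upward, while some of the list genes did not meet that minimum. The neuron, striatum and endothelial medians lay between these quartiles. The astrocyte median, 1.161, was just above the upper quartile, and the microglia median was further above it. In reads, whose ratio fell with level, the neuron genes had a median of 0.624, with 6 of 10 past 1.5-fold downward. Against genes of like FPKM their median in reads was 0.899. The astrocyte genes stood at 0.833 in reads with 2 downward. The microglia, endothelial and striatum genes with at least 10 reads in each library numbered 9, 10 and 6. They stood at 1.03, 1.19 and 1.24 with 0 past 1.5-fold either way. Only 2 blood genes had at least 10 reads in each library, Hba-a2 at 0.703 and Alas2 at 1.59. The part of these other cells in the difference of the myelin genes was not tested.

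No member was far from an equal contribution of Spretus and C57. Over the 9 genes, Spretus reads were 2558 of 5491 (46.6%) in library 1 and 648 of 1347 (48.1%) in library 2, beside 47.9% and 48.0% of all autosomal reads. All 9 members had at least 10 reads in each library and were tested. The median member had a Spretus share of 49.3%, and the median of 11584 autosomal genes was 48.1% (middle 50% from 43.9 to 51.8%). Individual members lay between 43.4 and 53.1%.

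The Spretus share of Mbp was 47.6% ± 1.18 (SD, n = 2), from 844 Spretus against 897 C57 reads in library 1, and 532 reads of both alleles in library 2. For Mobp, library 1 held 656 Spretus against 869 C57 reads, a share of 43.0% (exact 95% interval 40.5 to 45.5%). Library 2 held 186 against 200, a share of 48.2% (43.1 to 53.3%). For Cnp, library 1 held 254 against 375, or 40.4% (36.5 to 44.3%), and library 2 held 58 against 67, or 46.4% (37.4 to 55.5%). In library 1 the intervals of Mobp and Cnp lay below 50%, and in library 2 they held 50%.

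Mag gave 245 Spretus against 240 C57 reads in library 1, then 51 against 55 in library 2, for a Spretus share of 49.3% ± 1.70 (SD, n = 2). Cldn11 gave 175 against 171, then 32 against 29, for a Spretus share of 51.5% ± 1.33 (SD, n = 2). Ermn had the highest share, 53.1% ± 1.15, from 167 Spretus against 143 C57 reads in library 1, then 35 against 32 in library 2 (SD, n = 2). The 3 least sequenced members varied most between the libraries. Mog stood at 52.6% ± 8.13, Opalin at 44.5% ± 6.42 and Ugt8a at 51.2% ± 5.11 (SD, n = 2 each), and library 2 held 24, 15 and 31 of their reads. For Opalin that count allows a share from 16.3 to 67.7%, so a difference between the alleles would have been hard to see at this depth. The intervals of libraries 1 and 2 overlapped for all 9 members.

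**Figure D4:**
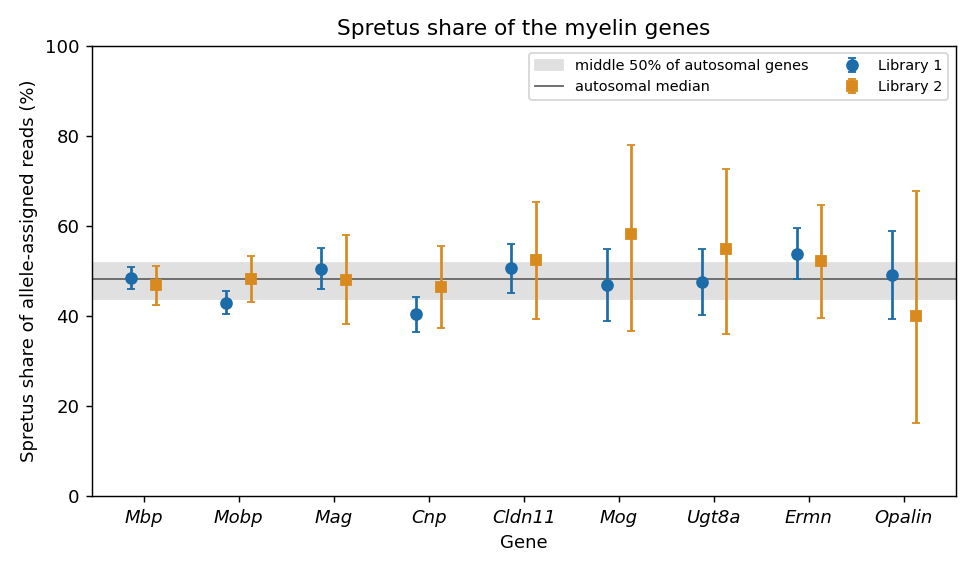
Spretus share of allele-assigned reads (vertical axis, percent) for the 9 myelin genes in library 1 (circles) and library 2 (squares), with exact 95% intervals. The line is the autosomal median of 48.1% and the band the middle 50% of autosomal genes; Mobp at 43.0% and Cnp at 40.4% in library 1 have intervals wholly below the line.

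Tested across all genes, 0 of the 9 members were called imbalanced by the quasi-likelihood test of edgeR after Benjamini-Hochberg adjustment. The background was 8.55% of 11981 genes called, 2.32% toward Spretus and 6.23% toward C57, and 5.43% of the autosomal genes. At an unadjusted p under 0.05 there were also 0 members, against 18.2% of all genes, and DESeq2 called 0, against 5.41%. Cnp had a log2 ratio of Spretus over C57 of -0.31 (SE 0.19, edgeR adjusted p = 0.458), and Ermn of 0.32 (SE 0.20, edgeR adjusted p = 0.464). The ratio of Mobp was -0.14 (SE 0.21, edgeR adjusted p = 0.842) and that of Mbp -0.02 (SE 0.24, edgeR adjusted p = 0.992). All 9 of the 95% intervals held 0, and together they ran from -0.80 to 0.79 on the log2 scale, both ends set by the thinly sequenced Opalin and Mog. Depth was not the only limit, because this fit ignores that both alleles were measured in the same library. Mbp, with 2273 reads, had an SE of 0.24 here and of 0.052 in edgeR with library as a block. The 0 calls therefore do not show that the alleles were equal.

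Since each library measured both alleles in a single RNA, a fit that blocked on library was also made, and it called 2 of 9, Cnp and Mobp, both toward C57. That fit called 25.0% of all genes, 10.8% toward Spretus and 14.2% toward C57, and 22.5% of autosomal genes, so 2 of 9 is close to the background. Cnp had a log2 ratio of -0.37 (SE 0.09, edgeR with block, adjusted p = 0.00352) and Mobp of -0.21 (SE 0.06, edgeR with block, adjusted p = 0.0083). Library 1 carried both calls. With library 1 alone the fitted log2 ratio was -0.38 for Cnp and -0.23 for Mobp, values with no test. With library 2 alone it was -0.03 for Cnp and 0.08 for Mobp, also with no test. The sign of Mobp turned only in the fitted value, since its library 2 reads were 186 Spretus against 200 C57. Ermn, at 0.34 (SE 0.13, edgeR with block, adjusted p = 0.0795), was not called. For Mbp the interval in this fit was narrow, from -0.09 to 0.12. As the libraries may come from the same pool, the SEs, intervals and p-values of this fit may not cover variation between animals.

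**Figure D5:**
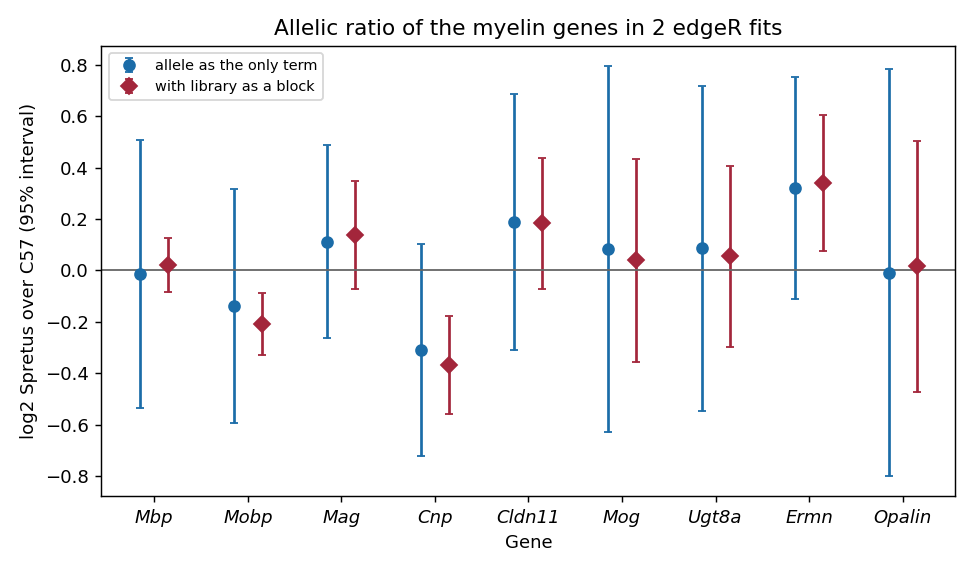
Log2 ratio of Spretus over C57 (vertical axis) with 95% intervals for the 9 myelin genes, from the edgeR fit with allele as the only term (circles) and the fit blocked on library (diamonds). With the block the intervals of Cnp (-0.56 to -0.18), Mobp (-0.33 to -0.09) and Ermn (0.07 to 0.60) leave out 0, and Ermn is not called after adjustment.

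The locus of Cnp on chromosome 11 (100574904 to 100591729) shares 8912 bp with Dnajc7, a chaperone gene whose reads were Spretus in 169 of 304 in library 1 and in 45 of 97 in library 2. The sources used here do not say whether counting used strand, so the reads of these overlapping genes cannot be told apart with certainty. Rpl21-ps8 lies inside Mbp (chromosome 18, 82475146 to 82585637), with 1 read in each library. Ermn (chromosome 2, 58045113 to 58052864) overlaps Galnt5 over 748 bp, which had 2 reads in library 1 and 0 in library 2. Gm22388 lies inside Mog (chromosome 17, 37010743 to 37023398) and had no allele-assigned read. Mobp (chromosome 9, 120149742 to 120181484), Mag (chromosome 7, 30899176 to 30914873), Cldn11 (chromosome 3, 31149920 to 31164324), Opalin (chromosome 19, 41062474 to 41077113) and Ugt8a (chromosome 3, 125865271 to 125938619) overlapped no other listed gene. Coordinates are those of the files in mm10, with starts counted from 1.

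For the other lineage genes, calls of the fit with allele as the only term stand beside 8.55% of all genes and 5.43% of autosomal genes. Of 24 tested mature oligodendrocyte genes 1 was called, toward C57. Of 7 tested genes of newly formed oligodendrocytes only Itpr2 was called, and none of 7 transcription factors, 18 lipid genes or 9 precursor genes. Gjb1, an X-linked connexin gene of myelin, had 0 Spretus reads in 55, which allows a share of up to 5.45%. Itpr2, a calcium release channel gene, was higher on Spretus, with 465 against 258 reads in library 1, then 105 against 42 in library 2 (log2 ratio 1.12, SE 0.20, edgeR adjusted p = 0.00280).

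Blocked on library, edgeR called 25.0% of all genes and 22.5% of autosomal genes, and no list was tested against these shares. Of 24 tested mature genes it called 3 toward Spretus and 6 toward C57. Of 7 transcription factors it called 2, both toward Spretus, and of 18 lipid genes 1 toward Spretus and 3 toward C57. Of the 9 precursor genes it called 1, toward Spretus, and of the 7 genes of newly formed oligodendrocytes 2, both toward Spretus. Named after their values were seen, Trf gave 36 Spretus against 72 C57 reads, then 8 against 25 (log2 ratio -1.01, adjusted p = 0.00116 in edgeR, blocked). Olig2 gave 105 against 61, then 19 against 22, so its libraries pointed in different directions although the block fit called it (log2 ratio 0.71, adjusted p = 0.00530 in edgeR, blocked). Calls outside the lineage lists with allele as the only term included Alas2 and Hba-a2 of the blood list and Ly6c1 of the endothelial list, all toward C57. Hba-a2 had 0 Spretus reads in 77 and 27, Ly6c1 0 in 122 and 27, and X-linked Alas2 2 in 71 and 0 in 11.

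No listed region of allelic methylation difference lay at the myelin genes. Of 1600 regions with methylation levels, 0 lay within 2 kb of a member locus. Such a region lay near 365 of 11584 tested autosomal genes (3.15%), so 0 of 9 is close to the background. The list holds called regions only, so the methylation of the member loci themselves is not known. In the authors' deposited table the nearest region lay 17.1 kb beyond the end of Mbp, was 24 bp long, and had levels of 0 on Spretus and 0.951 on C57. The authors' deposited table gave 0.123 on Spretus and 0.811 on C57 for a region 143 kb from Cnp, and a region 114 kb from Mobp was likewise lower on Spretus. For Mog the distance was 221 kb, for Mag 738 kb, for Ugt8a 929 kb and for Cldn11 1154 kb. Ermn and Opalin had none nearer than 2302 and 2648 kb. Among the members, only the nearest region of Ermn was higher on Spretus, with 0.762 against 0.0455 on C57 in the authors' deposited table. A link of these regions to the allelic RNA ratios was not tested. The nearest region of X-linked Gjb1, 25.0 kb away, had 0.729 on Spretus and 0.168 on C57 in the authors' deposited table.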

How the data were processed

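RNA-seq was made from rRNA-depleted total RNA of prefrontal cortex with a kit that marks strand, per the labels' protocols. Tools named without a role in the submitters' processing notes are HTSeq 0.6.0, TopHat2 2.0.9, bedtools 2.2.4 and Cufflinks 2.1.1, and the build is mm10. How reads were assigned to alleles is not given in the sources used here. Each RNA library has a deposited FPKM value per gene, both alleles together, and deposited raw counts of reads on Spretus and on C57, per the file headers. For MethylC-seq there is 1 deposited list of regions, whose 2 level columns are fractions, per the file headers. The sources used here do not give its coverage, thresholds or pooling.

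Of 46386 table rows, 46320 identifiers were used once each. Allelic counts were tested with edgeR 4.0.16 (glmQLFit and glmQLFTest, TMM, allele as the only term) in R 4.3.3 on 11981 genes with at least 10 reads in each library, adjusted over all of them by Benjamini-Hochberg at 0.05, and checked on simulated counts. The residual degrees of freedom were 2. Standard errors are the log2 ratio over the root of F. The alternatives were DESeq2 1.42.0, the library as a block, other filters and shared scaling. Alleles of a library share their RNA, which pairs them by design, and the deviations of their columns had a correlation of 0.799 over 1533 autosomal genes with at least 200 reads in each library. Shares have exact Clopper-Pearson 95% intervals, and a share of 0 is given with the limit that 3 reads allow. Reads carry no molecular identifiers, so these cover counting error only. Library ratios are library 1 over library 2, divided by the median ratio (FPKM of at least 1 in both, or at least 10 reads in each). Promoters are those of RefSeq.

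Named were all 9 members, other list genes called by the allele-only fit, the lineage genes with the highest and lowest library ratio, the 3 nearest to the members' median, and genes overlapping a member. Members and lists were chosen with earlier results of these data known. Some genes that this rule names are not reported here.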

Additional observations from a re-analysis of the deposited data

How the results depend on the processing

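The count of called myelin genes was 0 with allele as the only term, with DESeq2, with the alleles sharing the library total, with no filter on low counts, and with at least 50 reads in each library, where 6 of the 9 were tested. It was 2 with the replicate block, which raised the calls over all genes from 1024 to 2999. Leaving out either library leaves no residual degrees of freedom, so no count was made there. The fitted log2 ratios without library 1 and without library 2 were 0.08 and -0.23 for Mobp (-0.14 with both), -0.03 and -0.38 for Cnp (-0.31), 0.67 and -0.0036 for Mog (0.08), -0.40 and 0.13 for Opalin (-0.01) and 0.46 and 0.04 for Ugt8a (0.09). The alleles sharing a total moved the median log2 ratio of all genes to -0.12, against 0.01. The median Spretus share, 49.3%, was 48.4% on summed reads and 48.2 to 48.5% without either replicate. The library ratio of the members, a median of 1.61, was 1.36 in allele-assigned reads scaled to the library total, 1.85 against the neuron genes and 1.40 in reads against genes of like FPKM, the last chosen after seeing the data along with 3 of the settings below. Mbp was at 0.887 in scaled reads, the reverse of its FPKM ratio; the cause was not tested. The ratio needs both libraries, so none was left out there. Other minimums, a pseudocount, genes of like FPKM and a smaller set of members kept the median between 1.56 and 1.67. Within 10 kb of the members there were 0 listed regions and within 50 kb 1. Depth limits Mog, Opalin and Ugt8a most, and no depth is known for the methylation regions.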

Other observations

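Among the myelin genes of the peripheral nervous system, Prx and Pmp22 are given here, named after their values were seen. Prx, a scaffold protein of Schwann cells, had 12 Spretus reads in 14 in library 1 and 1 in 1 in library 2. It was below the minimum of 10 reads in each library and was not tested. Pmp22, which has other tissues of expression as well, had 35 Spretus reads in 89 and 5 in 15 and was not called by edgeR.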
